A study of Mus musculus with 10 samples.

Results

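The genes described here mark the tissues that line and fill the brain's ventricles. They are 5 genes of the choroid plexus, Ttr, Otx2, Folr1, Kl and Clic6, and 5 genes of the ciliated ependymal cells, Foxj1, Enkur, Ccdc153, Rsph1 and Tekt1. A probe set, the array's group of probes for a transcript, was taken where the annotation named exactly 1 gene and that gene was on this list. All 10 genes were found, of 18193 genes measured, and they had 15 of the 34945 probe sets that named 1 gene. Of these, 10 probe sets were of choroid plexus genes, 4 of them for Ttr, and 5 were of ependymal genes. Ttr was put on the list because earlier results of the same arrays had drawn attention to it, so it was chosen by its measured intensities on these arrays, and its values are given as a description, with no p-value.

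The study measured RNA from the preoptic region, a part of the hypothalamus that borders the third ventricle, cut from mouse brain sections by laser capture. Every mouse was of the DBA1/lacJ background and had received bacterial lipopolysaccharide (LPS) at 120 µg/kg into the abdomen 5 h earlier. There were 5 arrays from wild-type mice and 5 from mice lacking mPGES-1, the enzyme encoded by Ptges that makes prostaglandin E2 during inflammation, with 1 mouse to an array. No unstimulated mice were analysed here, so a response to LPS itself cannot be read from these values. The arrays are called WT 1 to WT 5 and KO 1 to KO 5 after their labels.

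The choroid plexus is a folded epithelium inside the ventricles that secretes cerebrospinal fluid, and transthyretin is its best known secreted product. Ependymal cells form the ventricle wall, and the beating of their motile cilia moves that fluid. A laser-captured piece beside a ventricle can hold some of either tissue, and RNA of their marker genes is a sign of how much was included. In a bulk sample, fewer cells of a type and less RNA in each cell cannot be told apart.

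Whole-array measures bear on every comparison. The deposited intensities had been scaled so that each array had the same trimmed mean of 200.002, but the shape of the distribution differed: 27.8% to 33.6% of all values were below an intensity of 16 in the WT arrays and 35.1% to 40.7% in the KO arrays. Labelling spike-in transcripts gave a signal on 7 arrays and none on WT 2, WT 5 and KO 3. The targeted gene went against the labels. Ptges probe set 1439747_at had a mean intensity of 4.54 ± 3.09 (SD, n = 5) in the WT arrays and 49.96 ± 24.5 (SD, n = 5) in the KO arrays, with no overlap, and the other two Ptges probe sets also had higher means in the KO arrays. The sources used here do not say whether these probes lie in the deleted part of the gene, and a probe outside it checks nothing. Genotypes are therefore given as labelled. The limma difference for 1439747_at was 1.60 ± 0.30 (SE) on the log2 scale with a Benjamini-Hochberg adjusted p of 0.0908.

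Ttr encodes the carrier of thyroxine and of retinol-binding protein. On its brightest probe set, 1454608_x_at, the WT arrays read 449, 293, 471, 580 and 582, and the KO arrays read 131, 405, 8599, 440 and 553 in replicate order. KO 3 was far above all 9 other arrays, KO 1 was the lowest, and the other 8 arrays lay between 293 and 582. KO 3 was 19.2 times the median of the other 9 arrays and 14.8 times the highest of them. The suffix _x_at marks a probe set that can also read unrelated transcripts, and _s_at one that is shared by several transcripts.

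The remaining Ttr probe sets had the same high array. On 1455913_x_at the WT arrays read 271, 155, 175, 147 and 169, and the KO arrays read 64.9, 155, 2942, 181 and 192. On 1459737_s_at the WT arrays read 198, 195, 216, 446 and 444, and the KO arrays read 75.5, 137, 6161, 326 and 228. On 1451580_a_at, 9 arrays were between 2.05 and 5.28, which is close to no signal, and KO 3 read 407. KO 3 was thus 17.4 and 28.6 times the median of the other arrays on 1455913_x_at and 1459737_s_at. No fold is given for 1451580_a_at, since the other arrays were near no signal. KO 1 was the lowest array on all 3 of the brighter Ttr probe sets. It read 131, 64.9 and 75.5 there.

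**Figure D1:**
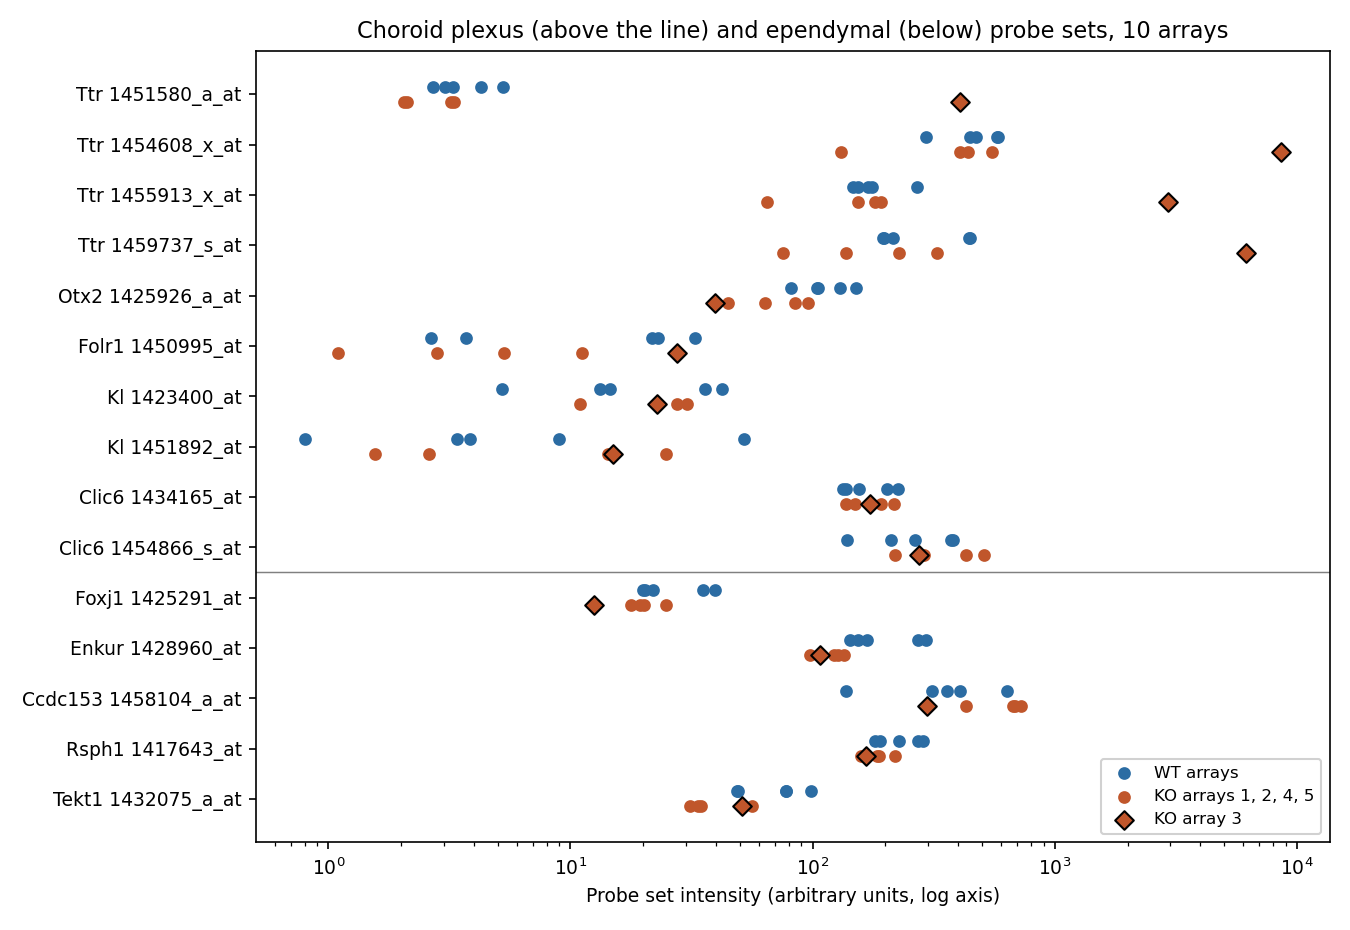
Intensity of the 15 probe sets (horizontal, arbitrary units, log axis) in the 5 WT arrays (blue) and 5 KO arrays (orange, KO 3 as a diamond). KO 3 stands apart to the right on all 4 Ttr probe sets and lies among or below the other arrays on the rest.

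The group difference of Ttr turned with this 1 array. With all 10 arrays, the labelled knockout mean of log2(intensity + 16) on 1454608_x_at was 0.50 above the labelled wild-type mean. Without KO 3 it was 0.42 below it, at a difference of -0.42, and over the 7 arrays on which the spike-ins gave signal the difference was -0.53. As intensities, the labelled wild-type mean was 475 ± 118 (SD, n = 5) and the labelled knockout mean was 2026 ± 3678 (SD, n = 5), or 383 ± 179 (SD, n = 4) without KO 3. KO 3 was 1 of the 3 arrays with no spike-in signal, and on this probe set the others, WT 2 and WT 5, read 293 and 582. The part of the spike-in signal in the Ttr value of KO 3 was not tested.

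Probe sets far higher in a single array than in all others were counted. Among 20967 probe sets above a filter that left out the dimmest 40%, KO 3 had 4 that were at least 5 times higher than in every other array, and none of the other 9 arrays had any. Of these 4, 3 were the brighter Ttr probe sets. They are of the same gene, which was chosen by its values on these arrays, so the count is a description. The fourth was of Prkcb, a protein kinase C gene, at 1333 in KO 3 and at most 257 elsewhere.

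The other choroid plexus genes did not share the high level in KO 3. Of the 6 probe sets of Otx2, Folr1, Kl and Clic6, 3 were above the median of the other arrays in KO 3 and 3 below, and KO 3 was the highest array on 0 of them. Folr1 read 27.5 in KO 3 against a median of 5.32, which is near no signal, and WT 1 was higher. The ratio of Otx2 was 0.41, and it had its lowest value in KO 3. A wider list of 28 choroid plexus markers, compiled for this comparison, had 24 measured genes. KO 3 was above the median of the others for 9 of them and below for 15, with a median ratio of 0.84. Over all 18193 genes it was below for 56.3%, with a median ratio of 0.94. Of the 24 listed genes, 3 had their lowest value in KO 3 and 1 its highest, against 13.0% and 8.88% of all genes. The highest ratios were those of Kcnj13, a potassium channel gene, at 2.73, of Ecrg4, which encodes a secreted peptide of the choroid plexus, at 2.70, and of Sostdc1, a secreted BMP and Wnt antagonist, at 1.99. Only Sostdc1 was highest in KO 3, where it read 74.9 against 68.8 in WT 1. Several defining markers were near no signal in these arrays: the median intensity was 5.48 for Kcne2, 3.58 for Tmem72, 3.81 for Lmx1a and 1.74 for Slc4a5.

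**Figure D2:**
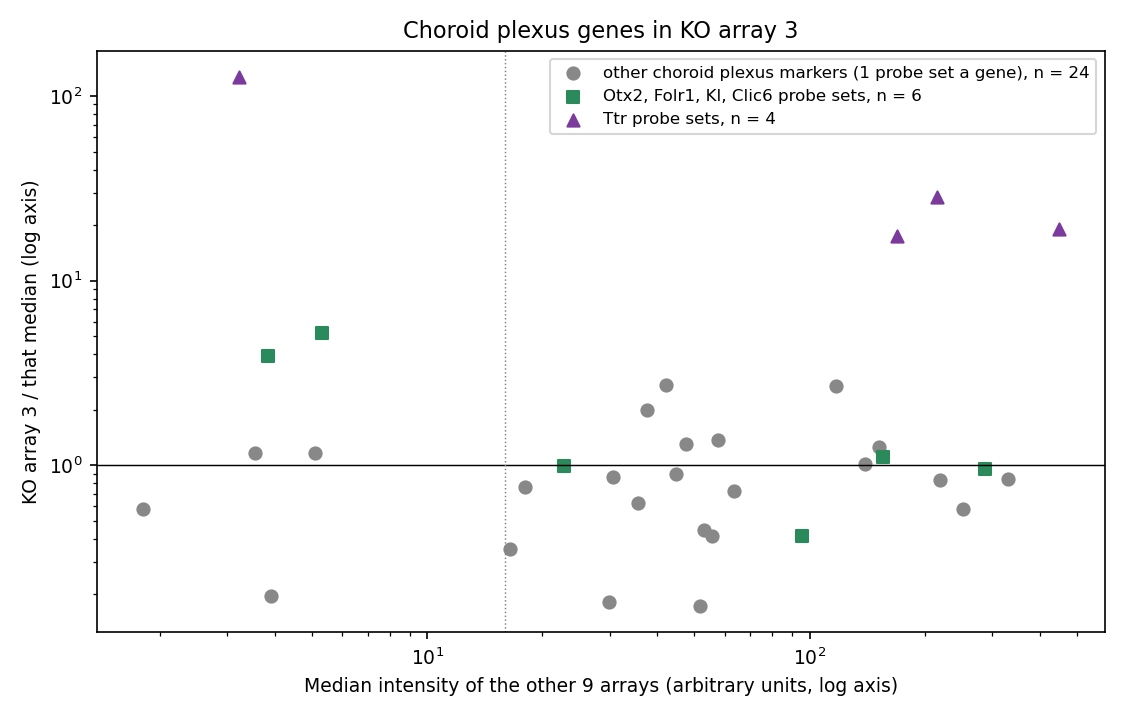
Ratio of KO 3 to the median of the other 9 arrays (vertical, log axis) against that median intensity (horizontal, arbitrary units, log axis) for 4 Ttr probe sets, 6 probe sets of the other choroid plexus members and 24 further choroid plexus markers. The solid line is a ratio of 1 and the dotted line an intensity of 16. Ratios left of the dotted line are over values near no signal and have no exact size. The 3 Ttr points right of it lie at 17.4 and above, and all other points right of it at 2.73 or below.

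Ependymal genes were not high in KO 3. Of the 5 ependymal member probe sets, 1 was above the median of the others and 4 below, with a median ratio of 0.75. Foxj1 was lowest in KO 3, and Enkur, Ccdc153 and Rsph1 were second lowest there. Among 36 measured genes of a wider list of ependymal and motile cilia genes, KO 3 was above the median of the others for 7 and below for 29, with a median ratio of 0.72. It was the lowest array for 12 of these genes and the highest for 0. Over all 18193 genes, KO 3 was below that median for 56.3%, with a median ratio of 0.94. It was the lowest array for 13.0% of all genes and the highest for 8.88%. How the low ependymal values and the high Ttr of KO 3 relate was not tested.

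The comparison by labelled genotype asked whether the ventricular genes, Ttr aside, differed between the groups. It used limma on log2(intensity + 16) across all 34945 probe sets, with p-values adjusted over all of them. None of the 11 probe sets of the other 9 genes passed an adjusted p of 0.05 in limma, and 0% of all probe sets did. At an unadjusted p below 0.05, 3 of the 11 had a lower mean in the KO arrays and 0 a higher mean, where 8.77% of all probe sets had a lower mean at that level. The groups did not overlap on 1 of the 11, with a lower level in the KO arrays, against 3.37% of all probe sets (2.42% lower and 0.944% higher in the KO arrays). In all, 6 of the 11 had a lower mean and 5 a higher mean in the KO arrays, and 62.8% of all probe sets had a lower mean. The median difference was -0.30 over the 11 and -0.11 over all probe sets.

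**Figure D3:**
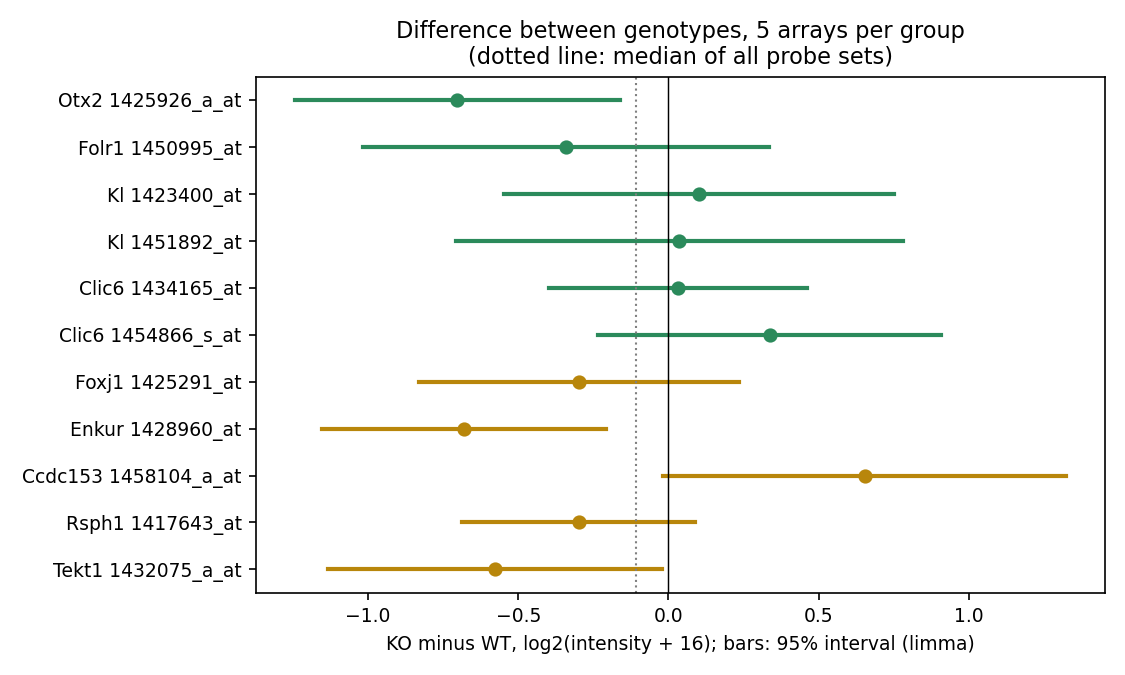
Labelled knockout minus labelled wild-type on the log2(intensity + 16) scale (horizontal) for the 11 probe sets other than Ttr, with points for the limma estimate and bars for its 95% interval. The solid line is 0 and the dotted line the median of all probe sets, -0.11. The intervals of Otx2, Enkur and Tekt1 lie below 0, and those of the other 8 probe sets include it.

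Otx2 encodes a homeodomain transcription factor that specifies and maintains the choroid plexus. Its intensities were 81.5, 104, 151, 105 and 129 in the WT arrays and 84.4, 44.9, 39.5, 95.4 and 63.5 in the KO arrays. KO 2, KO 3 and KO 5 were below every WT array, while KO 1 and KO 4 lay within the WT range. The means were 114 ± 26.5 and 65.5 ± 24.3 (SD, n = 5 each), a difference of -0.70 ± 0.26 (SE) with a 95% interval from -1.24 to -0.16. The limma adjusted p was 0.260, and the exact permutation p, two-sided over the arrays and not adjusted, was 0.024. Without KO 3 the difference was -0.58.

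Clic6 encodes a chloride intracellular channel protein found in the choroid plexus epithelium. Its brighter probe set 1454866_s_at read 381, 139, 265, 210 and 374 in the WT arrays and 288, 510, 275, 219 and 432 in the KO arrays. KO 2 and KO 5 were above every WT array, WT 2 and WT 4 were below every KO array, and the other 6 arrays overlapped, with a difference of 0.34 ± 0.27 (SE), a 95% interval from -0.23 to 0.91 and a limma adjusted p of 0.616. On 1434165_at the means were 171 ± 41.1 and 174 ± 32.4 (SD, n = 5 each), and the difference was 0.03 ± 0.20 (SE). Clic6 was thus readily measured in every array and had no high value in KO 3, which read 275 and 173.

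Folr1 and Kl were dim. Folr1 encodes the folate receptor that the choroid plexus uses to move folate into the cerebrospinal fluid. It read 32.6, 3.72, 23.0, 21.8 and 2.66 in the WT arrays and 5.32, 11.2, 27.5, 1.10 and 2.81 in the KO arrays, and 6 of these 10 values were below 16. The difference was -0.34 ± 0.32 (SE), with a limma adjusted p of 0.678. Over the 7 arrays on which the spike-ins gave signal it was -0.999 ± 0.26 (SE), with a limma adjusted p of 0.303, and it was -0.17 without WT 1. Kl encodes klotho, the co-receptor for the hormone FGF23. Its probe set 1423400_at read 42.1, 5.22, 35.9, 13.2 and 14.6 in the WT arrays and 30.2, 22.8, 22.7, 27.5 and 10.9 in the KO arrays, a difference of 0.10 ± 0.31 (SE). The other Kl probe set, 1451892_at, had 8 of 10 values below 16 and 1 high value, 52.1 in WT 2. The 2 probe sets put different arrays first, so at these intensities the order of the arrays cannot be read.

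Foxj1 encodes the transcription factor that switches on the motile cilia program. It was dim as well, at 19.9, 21.9, 39.4, 35.3 and 20.3 in the WT arrays and 20.0, 24.7, 12.5, 19.3 and 17.9 in the KO arrays. WT 3 and WT 4 were above the rest, and KO 3 was the only array below 16. The means were 27.4 ± 9.27 and 18.9 ± 4.40 (SD, n = 5 each), a difference of -0.30 ± 0.25 (SE), with a limma adjusted p of 0.639.

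Enkur, Ccdc153 and Tekt1 have a promoter window in the RefSeq table, and the 250 bases before each start are shown because regulatory factor X (RFX) proteins, which act with Foxj1, bind X-box sequences at cilia genes. Windows were found for 5 of the 10 genes in all, and those of Ttr, Folr1, Clic6, Foxj1 and Rsph1 were not matched. The build is GRCm38.p6, and capitals mark each GTTGCC, an X-box half-site, on either strand (GGCAAC on the reverse strand). The windows are Enkur at chr2:21205366-21205615 on the minus strand, Ccdc153 at chr9:44240427-44240676 on the plus strand and Tekt1 at chr11:72361883-72362132 on the minus strand.
Enkur: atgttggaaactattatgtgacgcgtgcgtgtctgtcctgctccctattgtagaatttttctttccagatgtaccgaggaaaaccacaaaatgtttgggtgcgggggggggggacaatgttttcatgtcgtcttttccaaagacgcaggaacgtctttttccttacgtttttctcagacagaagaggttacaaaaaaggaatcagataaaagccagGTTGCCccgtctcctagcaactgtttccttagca
Ccdc153: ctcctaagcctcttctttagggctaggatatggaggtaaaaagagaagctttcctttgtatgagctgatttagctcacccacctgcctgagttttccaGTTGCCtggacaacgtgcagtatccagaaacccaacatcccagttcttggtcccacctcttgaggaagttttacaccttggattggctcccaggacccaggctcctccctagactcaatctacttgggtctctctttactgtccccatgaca
Tekt1: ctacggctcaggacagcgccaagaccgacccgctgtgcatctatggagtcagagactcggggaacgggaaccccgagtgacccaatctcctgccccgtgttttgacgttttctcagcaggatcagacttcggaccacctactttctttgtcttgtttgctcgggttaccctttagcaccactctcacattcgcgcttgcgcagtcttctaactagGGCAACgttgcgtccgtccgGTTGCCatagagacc
The half-site lies 34 to 29 bases before the start of Enkur and 152 to 147 bases before that of Ccdc153. Tekt1 has one at 15 to 10 bases and one on the reverse strand at 35 to 30 bases before this start. The half-site was in 5 of the 9 member windows, including 2 of the 4 Otx2 windows, and in neither the other Tekt1 window nor the Kl window. Those 2 Otx2 windows overlap and hold the same half-site, so they are not separate counts. Of all 32851 windows of this length, 10.4% hold it on either strand. The full X-box, both half-sites with their spacer, was in 1.80% of all windows and in 0 of the 9 member windows, and the forkhead motif GTAAACA was in 3.17% of all and in 0 of the 9. The OTX motif TAATCC was in 6.25% of all windows and in 1 of the 4 Otx2 windows. A match is only a match of letters, and no binding was measured here.

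Enkur encodes enkurin, a calmodulin-binding protein of motile cilia and sperm flagella. Its intensities were 272, 168, 295, 142 and 153 in the WT arrays and 97.9, 127, 107, 135 and 122 in the KO arrays. It was the 1 member probe set on which the groups did not overlap, and the gap was narrow, from 135 in KO 4 to 142 in WT 4. The KO arrays were tightly grouped, at 118 ± 15.2 (SD, n = 5), and the WT arrays were spread, at 206 ± 71.8 (SD, n = 5), with WT 1 and WT 3 far above the rest. The difference was -0.68 ± 0.22 (SE), with a 95% interval from -1.15 to -0.21. The limma adjusted p was 0.226, and the exact permutation p of 0.0079 is the smallest that 5 arrays against 5 can give. Every probe set without overlap has that value, and 3.37% of all probe sets had no overlap. Exact permutation p-values are not adjusted. They were 0.048 for Tekt1, 0.079 for Rsph1, 0.127 for Foxj1 and 0.151 for Ccdc153. For the Clic6, Folr1 and Kl probe sets they were 0.333 or above. Enkur is on chromosome 2, as is Ptges, with 189 protein-coding genes between them in the RefSeq table.

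Tekt1 encodes tektin 1, a filament protein of ciliary doublet microtubules. It read 48.7, 77.4, 49.0, 99.0 and 77.7 in the WT arrays and 31.1, 56.2, 51.0, 33.6 and 34.7 in the KO arrays. KO 1, KO 4 and KO 5 were below every WT array, and KO 2 and KO 3 were within the WT range. The difference was -0.58 ± 0.26 (SE), with a 95% interval from -1.13 to -0.02 and a limma adjusted p of 0.366.

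Rsph1 encodes a radial spoke head protein of the ciliary axoneme. It read 181, 191, 285, 274 and 228 in the WT arrays and 188, 159, 166, 185 and 218 in the KO arrays. WT 3 and WT 4 were the 2 highest arrays, and the groups overlapped. The means were 232 ± 46.9 and 183 ± 23.2 (SD, n = 5 each), a difference of -0.30 ± 0.18 (SE) with a limma adjusted p of 0.501.

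Ccdc153, a component of the complex that regulates ciliary dynein, had the opposite sign. It read 313, 358, 634, 406 and 137 in the WT arrays and 673, 727, 296, 684 and 429 in the KO arrays. KO 1, KO 2 and KO 4 were above every WT array, and KO 3 was below all WT arrays but WT 5. The difference was 0.65 ± 0.32 (SE), with a 95% interval from -0.02 to 1.32 and a limma adjusted p of 0.395. Without KO 3 it was 0.86, and with the hybridization control signal as a covariate it was 1.44 ± 0.36 (SE), with limma adjusted p-values of 0.332 and 0.430.

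The size of these differences depended on the scaling of the arrays. Centring each array on its median, in place of the authors' scaling, moved the median difference of all probe sets from -0.11 to 0.17. The differences then were -0.40 for Enkur, -0.42 for Otx2, -0.30 for Tekt1, -0.02 for Rsph1, -0.02 for Foxj1 and 0.93 for Ccdc153. Enkur, Otx2, Tekt1, Rsph1 and Ccdc153 kept their sign under all 19 settings that moved the value, median centring included, and Foxj1 under 18 of 19. The hybridization controls, added after labelling, were also brighter in most WT arrays, at a mean log2 of 10.79 to 12.19 against 10.19 to 11.12 in the KO arrays. With that signal as a covariate the difference was -0.56 ± 0.32 (SE) for Enkur, -0.71 ± 0.37 (SE) for Otx2 and -0.26 ± 0.33 (SE) for Clic6, for which it was 0.34 without the covariate.

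The wider lists were read on 1 probe set per gene, over the 10916 genes left after the dimmest 40% were taken out. Of the 10 members, 7 passed this filter. In this fit 8 genes passed a limma adjusted p of 0.05, which is 0.0733% of those tested, and 50.9% had a lower mean in the KO arrays. Of 14 further choroid plexus markers above the filter, 8 had a higher and 6 a lower mean in the KO arrays, 0 passed, and the median difference was 0.12, or -0.02 without KO 3. At an unadjusted p below 0.05, 1 had a higher mean and 3 a lower mean, against 8.29% and 8.96% of all genes. Ace, the angiotensin-converting enzyme, read 53.1, 70.1, 73.9, 88.4 and 83.7 in the WT arrays and 51.8, 32.8, 23.6, 15.7 and 23.7 in the KO arrays. The groups did not overlap, as for 4.68% of all genes above the filter, by a margin of 53.1 to 51.8, and the difference was -1.02 ± 0.24 (SE) with a limma adjusted p of 0.071. Wfdc2 differed by -0.74 ± 0.27 (SE) and Ecrg4 by 1.27 ± 0.54 (SE), with limma adjusted p-values of 0.177 and 0.244.

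Of 22 further ependymal and motile cilia genes above the filter, 5 had a higher and 17 a lower mean in the KO arrays, and 0 passed. The median difference was -0.13, against -0.01 over all genes above the filter. At an unadjusted p below 0.05, 1 gene had a higher and 1 a lower mean, against 8.29% and 8.96% of all genes. The sign of this list depended on the scaling: with median centring 18 had a higher and 4 a lower mean, at a list median of 0.15 and a median of 0.27 over all genes. Without KO 3 the split was 8 higher and 14 lower. Dnali1, which encodes an axonemal dynein chain, differed by -1.30 ± 0.40 (SE), with a limma adjusted p of 0.120, and KO 2 and KO 5 read 4.3 and 5.8 against 52.3 to 74.6 in the other KO arrays. Stoml3, a membrane protein gene, differed by 0.73 ± 0.28 (SE) with a limma adjusted p of 0.188, and the dim Armc4, needed for outer dynein arms, by 0.73.

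A list of cilia and RFX family transcription factors had 4 genes above the filter. Of these, 1 had a higher and 3 a lower mean, and 0 passed in limma. At an unadjusted p below 0.05, 1 had a higher and 1 a lower mean, against 8.29% and 8.96% of all genes. Rfx3, an RFX factor of ciliated cells, read 38.2 to 157 in the WT arrays and 164 to 219 in the KO arrays. The groups did not overlap, as for 4.68% of all genes above the filter. The Rfx3 difference was 0.93 ± 0.30 (SE), with a limma adjusted p of 0.127. Rfx5, on the list as an RFX family member, was the 1 with a lower mean at an unadjusted p below 0.05. It differed by -0.40 ± 0.16 (SE), and Rfx4 differed by -0.36 ± 0.20 (SE).

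Pathways that use the choroid plexus proteins were also counted. Among 7 genes above the filter that handle the ligands of transthyretin, 5 had a higher and 2 a lower mean, with a median of 0.02. Among 3 genes of klotho and endocrine FGF signalling, 1 had a higher and 2 a lower mean, with Fgfr1, an FGF receptor, at 0.53 ± 0.25 (SE). Among 8 genes of folate transport and metabolism, 3 had a higher and 5 a lower mean, with a median of -0.10. Of these genes above the filter 0 passed in limma, and 1, Fgfr1, had an unadjusted p below 0.05, against 17.2% of all genes. With each array centred on its median, all 7 and all 3 genes of the first 2 lists had a higher mean, and 7 of the folate genes a higher and 1 a lower mean. Dim genes among the 3 smallest p-values of each list were Rarb at 0.74, Stra6 at -0.59, Slc34a1 at -0.60, Klb at -0.39, Slc46a1, the proton-coupled folate transporter, at -0.67, Mtr at -0.54 and Tyms at -0.41, and Thra, a thyroid hormone receptor above the filter, was at -0.20.

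Markers of neighbouring tissue were read beside these results. Of 8 tanycyte genes, 2 had a higher and 6 a lower mean in the KO arrays, with a median of -0.43 (-0.15 with median centring, when 3 had a higher and 5 a lower mean). None passed in limma. At an unadjusted p below 0.05, 1 had a higher and 4 a lower mean, against 8.29% and 8.96% of all genes above the filter. The mean level of the tanycyte list was 9.28 to 9.42 on the log2(intensity + 16) scale in the WT arrays and 8.98 to 9.41 in the KO arrays. Scn7a, Vim and Cd59a led it, at -0.75, -0.44 and -0.41. Ppp1r1b was named on both the tanycyte and the striatal list. Of 9 striatal and septal genes, 6 had a higher and 3 a lower mean, with a median of 0.93, and 1 passed: Tac1, which encodes substance P, rose by 1.42 ± 0.22 (SE) with a limma adjusted p of 0.031, and 0 passed without KO 3. Pde10a and Arpp21 differed by 1.60 and 2.04. The striatal list's mean level was 8.11 to 8.65 in the WT arrays and 8.37 to 9.82 in the KO arrays, and it was highest in KO 3. Of 13 preoptic and hypothalamic genes, 6 had a higher and 7 a lower mean, with a median of -0.02, led by Oxt at -0.53, Nts at 0.41 and the dim Hcrt at -0.76. Its level was 8.24 to 8.62 in the WT arrays and 8.13 to 8.74 in the KO arrays, and it was lowest in KO 3. Of 9 meningeal genes, 5 had a higher and 4 a lower mean, with Slc6a13 at -0.60, the dim Col1a1 at -0.51 and Fn1 at 0.34, and of 6 endothelial genes 1 had a higher and 5 a lower mean, with Flt1 at -0.53, the dim Cdh5 at -0.47 and Slco1a4 at -0.34. With each array centred on its median, the counts of higher and lower means were 9 and 0 for the striatal, 9 and 4 for the preoptic, 8 and 1 for the meningeal and 3 and 3 for the endothelial genes. The part of these tissues in the differences of the ventricular genes was not tested.

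**Figure D4:**
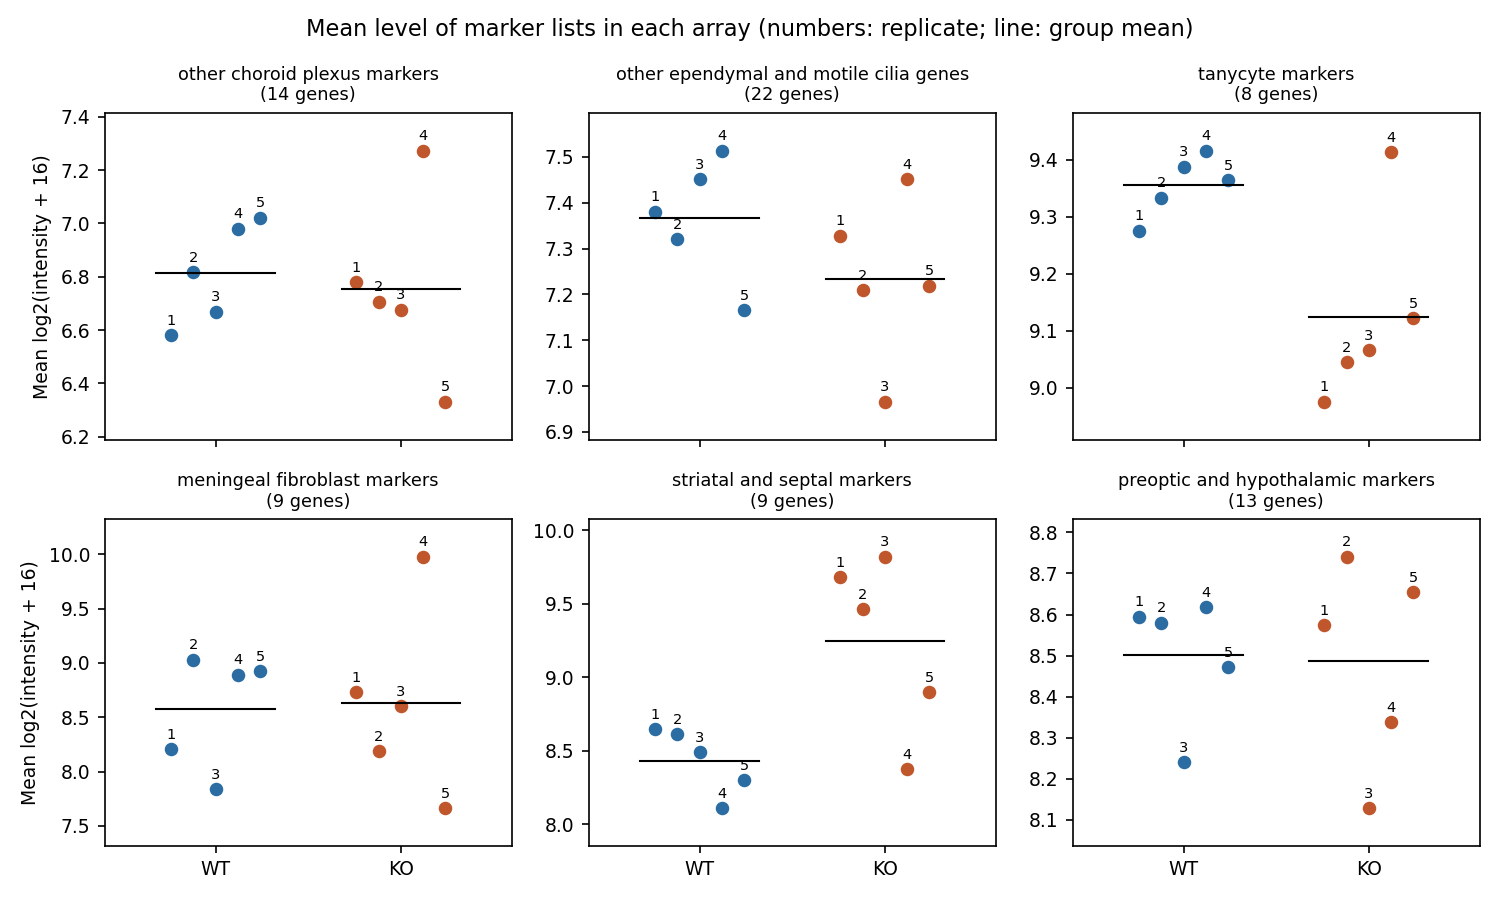
Mean log2(intensity + 16) over the genes above the filter of 6 marker lists (vertical) in the WT and KO arrays. Points are arrays numbered by replicate and lines are group means. KO 3 is lowest for the ependymal and the preoptic list and highest for the striatal list, at 6.97, 8.13 and 9.82, and lies inside the range for the choroid plexus list, at 6.68.

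If the captured tissue held more or less of the ventricle wall from mouse to mouse, its marker genes could vary together. Over the 10 arrays, 45 pairs of members were compared on their brightest probe sets. The median Pearson's r was 0.34 between the ependymal genes, with 7 of 10 pairs positive, 0.01 between the choroid plexus genes, with 5 of 10 positive, and -0.04 between genes of the 2 tissues, with 12 of 25 positive. With group means removed, the median r between the ependymal genes was 0.11. None of the 36 pairs without Ttr had a permutation p below 0.05 for either coefficient after adjustment over all 45 pairs, and 2 had one for r and 3 for rho before it. The pair Otx2 and Rsph1 had r = 0.75 (permutation p = 0.012, adjusted 0.306) and rho = 0.84 (permutation p = 0.0035, adjusted 0.156). Its r was 0.58 with group means removed and 0.58 without the 2 arrays farthest from the median of Otx2. Foxj1 and Rsph1 had r = 0.75 (permutation p = 0.014, adjusted 0.306) and rho = 0.50, and r was 0.03 without the 2 farthest arrays, so that relation rests on WT 3 and WT 4. The 9 pairs with Ttr are a description. With Otx2, r was -0.49 over 10 arrays and 0.14 without KO 3, and with Foxj1 it was -0.41 and 0.25. With Ccdc153 it was -0.38 over 10 arrays and -0.41 without KO 3.

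**Figure D5:**
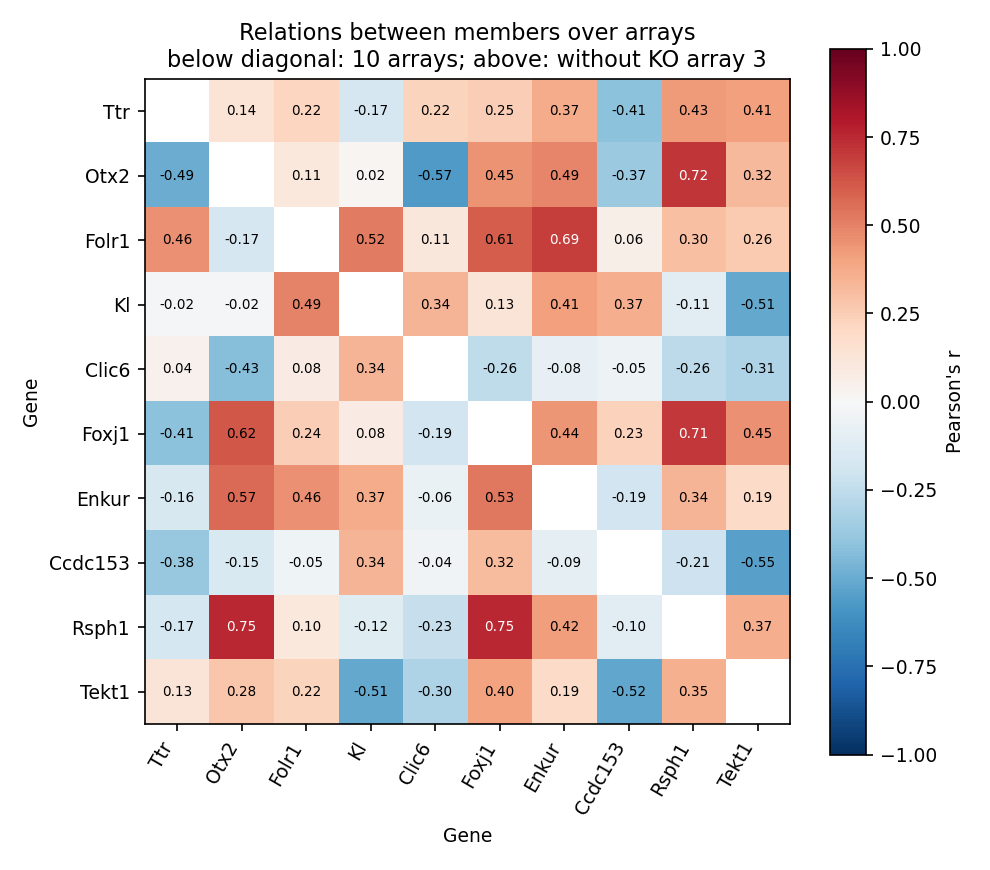
Pearson's r between the brightest probe sets of the 10 genes, over 10 arrays below the diagonal and over 9 arrays without KO 3 above it, from blue at -1 to red at 1. The strongest values are those of Rsph1 with Otx2 and with Foxj1, both 0.75, and the values of Ttr with Otx2 change from -0.49 to 0.14.

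The genes whose pattern over the 10 arrays was most like that of Ttr were Cck, Mgll, Ccser2, Tubgcp5, Adcy9 and Clcn4, with r from 0.91 to 0.93 among 10915 genes ranked. All 6 had their highest value in KO 3, where Cck, the gene of the neuropeptide cholecystokinin, read 359 against 42.5 to 73.8 in the other arrays. Without KO 3 their r was 0.48 to 0.76. For Foxj1 the genes most alike were Srcap, Coro1c, Phf2, Ttll5, Cfap65 and Park7, with r from 0.90 to 0.96 among 10916. Of these, Cfap65 is a gene of cilia and flagella. Foxj1 itself was dim, at 12.5 to 39.4, with WT 3 and WT 4 highest. Both rankings took the highest of many correlations over 10 arrays, so they are a description.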

How the data were processed

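Per the labels' protocols, the captured RNA went through 2 rounds of amplification before biotin labelling. The authors deposited probe set intensities, for which the submitters' processing notes name GCOS. Its version and settings were not found in the labels or file headers, and the values had been scaled to an equal trimmed mean (2% off each end). Of 45101 probe sets, 64 were controls, 34945 named 1 gene, 932 several and 9160 none, and only those with 1 gene were used. Gene names came from the platform annotation, and 34741 probe sets matched RefSeq (GRCm38.p6) by Entrez ID and 0 symbols differed. At most 0.00443% of values were equal between any pair of arrays.

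The scale was log2(intensity + 16), on which changes of dim genes are understated. Differences, KO minus WT as labelled, were fitted in limma (lmFit, then eBayes with its trend option) with no covariate, over all 34945 probe sets without a filter, and p-values were adjusted by Benjamini-Hochberg at a threshold of 0.05. A further fit took 1 probe set per gene, the brightest and _x_at only if there was no other, above a mean log2 of 5.83. Single values were tested by a two-sided exact permutation test and correlations with 100000 permutations. The number of arrays limits the precision. On simulated data with known changes, the probe set fit recovered 6% of probe sets changed by 0.75 on the log2 scale. It recovered 32% of those changed by 1 and 90% of those changed by 2. The gene fit recovered 50%, 68% and 98%. Ttr aside, the largest member difference was that of Otx2 at -0.70, and the probe set fit would miss most changes of that size. The labels' descriptions give each array a mouse number of its own, apart from the replicate number.

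The named genes were the members, the 3 genes of each wider list with the smallest p and any past the threshold, the 6 genes most like each of Ttr and Foxj1, and Ptges. Prkcb, Kcnj13, Sostdc1 and the dim choroid plexus markers were named after their values were seen. The members and lists were chosen with earlier results of these data known. The alternatives were other pseudocounts, normalizations and filters, array weights, no trend, blocks, covariates and leaving out each array. R 4.3.3, limma 3.58.1, the data.table package (version 1.17.8), Python 3.11.15, pandas 2.3.3, numpy 2.4.6, scipy 1.17.1 and matplotlib 3.10.9 were used.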

Additional observations from a re-analysis of the deposited data

Results flagged for a closer look

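In each group of 5 arrays, the highest and lowest array of every member probe set were compared with the nearest other array on the log2(intensity + 16) scale, as a share of the group's range. An array was singled out where that share was above 0.71. Of the 22 groups of the other 9 genes, 1 had such an array, where chance gives about 1 in 20. For Ttr, which was chosen for its values on these arrays, no chance rate applies, and its gaps are a description. On Ttr 1451580_a_at, KO 3 was the highest KO array with a gap of 0.979 of the range, and on Ttr 1455913_x_at it was the highest with a gap of 0.738. On Ttr 1455913_x_at, WT 1 was the highest WT array at 271, with a gap of 0.719. On Kl 1451892_at, WT 2 was the highest WT array at 52.1, with a gap of 0.717, on a probe set with 8 of 10 values below 16. On Ttr 1454608_x_at and 1459737_s_at the gap above the other KO arrays was a smaller share of the range, since KO 1 was also far from the rest.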

How the results depend on the processing

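Ttr aside, no member probe set passed an adjusted p of 0.05 in limma under any setting, and 1 to 4 did at an unadjusted p below 0.05. Over all probe sets, 0 passed (4543 at an unadjusted p below 0.05), with 607 under median centring, 597 of them higher, 30 at an adjusted p below 0.1 and 0 to 1 when each array was left out. Of genes above the filter 8 passed, with 24 at a pseudocount of 64, 1053 under median centring (1027 higher), 3 with no filter, 112 with array weights, 16 with the spike-in signal as a block and 0 to 39 when each array was left out (39 without WT 3, 31 without KO 1, 29 without WT 5, 5 without KO 4 and 0 without any other). It was 0 with quantile normalization (1638 unadjusted), without an intensity trend (1883), in the 7 arrays with spike-in signal (1500), with the hybridization control covariate (1317) and, chosen after seeing the data, without KO 3 under quantile normalization (1457). The cause of these changes was not tested, except that fewer arrays enter 2 of them. With the replicate number as a block, 1 probe set and 2 genes passed. Same-numbered arrays correlated by -0.13 to 0.07 in their deviations from the group means. These values show no pairing by number, but low correlations cannot exclude one.

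Leaving out each array gave differences of -0.83 to -0.58 for Otx2, -0.79 to -0.54 for Enkur, -0.67 to -0.46 for Tekt1, -0.38 to -0.22 for Rsph1, -0.36 to -0.20 for Foxj1, 0.36 to 0.88 for Ccdc153, 0.13 to 0.48 for Clic6, -0.55 to -0.17 for Folr1, -0.09 to 0.28 for Kl and -0.42 to 1.04 for Ttr. Ttr turned sign under 3 of 23 settings. Folr1, Foxj1 and Clic6 each turned under 1 setting and Kl under 2. Limits are the 5 arrays a group, values near no signal for Folr1, Kl and Foxj1, and Ttr probe sets that can read other transcripts.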

Other observations

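Meningeal genes were highest in KO 4: 8 of 11 measured genes of that list had their highest value there, and the list's mean level was 9.98 on the log2(intensity + 16) scale against 7.67 to 9.03 in the other arrays. KO 4 also had the highest mean level of the wider choroid plexus list, 7.27 against 6.33 to 7.02 elsewhere, while its Ttr intensity of 440 lay within the range of the WT arrays. Ecrg4 read 1097 in KO 4 and at most 331 elsewhere. Kcnj13 read 200.2 in KO 4 and 207.6 in WT 5, above 115 in KO 3 and 19.1 to 59.5 in the other arrays. KO 3, the array with the high Ttr, had a mean level of 6.68 on the wider choroid plexus list. The part of meningeal tissue in the choroid plexus list level of KO 4 was not tested.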
